A study of Mus musculus with 24 samples.

Results

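The genes described here are 47 mouse genes of DNA replication and S phase, taken as a list of symbols that covers the loading of the replicative helicase at origins, the firing of origins and the moving fork, the DNA polymerases with their clamp and the joining of Okazaki fragments, the supply of deoxynucleotides, and the assembly of chromatin behind the fork. The list follows the functions of the genes and uses no measured value, but it was drawn up with earlier results of these data known. A probe set annotated to only 1 of these symbols was present for 46 of the 47, which makes 98 of the 45101 probe sets on the array and 46 of the 12765 genes tested. Chaf1a, the large subunit of chromatin assembly factor 1, was not analysed here. All 46 passed the filter on low values, with its probe set at or above 4.64 on all 13 arrays, so no gene entered through the group in which it was high.

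The study measured RNA of blood stem and progenitor cells sorted from the marrow of 129ola mice, 8 to 12 weeks of age, on Affymetrix expression arrays, to ask what a reduced dose of the maintenance DNA methyltransferase Dnmt1 does to their expression programme. The groups were haematopoietic stem cells (HSC) of Dnmt1 hypomorph mice (Dnmt1-/chip, 3 arrays), myeloid progenitors (MP) of the same genotype (3 arrays), and the wildtype (Dnmt1+/+) counterparts, with 3 arrays of MP, 2 of B cell progenitors and 2 of HSC. B cell progenitors of hypomorph mice were not analysed here. All groups share the strain, the age range and the tissue, no treatment is given, and 35000 to 100000 sorted cells went into each preparation through a protocol for small samples. The labels name no cell type to which the Dnmt1 alleles are restricted, give no sort markers and do not say how many animals stand behind the arrays of a group, so p-values measure the spread between arrays, which may be partly technical. In bulk RNA of sorted cells, a larger share of cells in S phase and more RNA of these genes in each cell cannot be told apart.

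Values are log2 intensities, so a difference of 1 is a 2-fold difference of intensity, and levels were compared between groups of arrays but not between genes. A gene was called when its limma p-value, adjusted by Benjamini and Hochberg over all 12765 genes, was under 0.05. Dnmt1 itself was at 9.02, 8.48 and 9.31 in hypomorph HSC, against 11.80 and 11.58 in wildtype HSC, a fall of 6.75-fold (log2 change -2.75, SE 0.24, adjusted p = 2.85e-05). In MP it was at 8.01, 8.24 and 8.17 in hypomorph cells, against 11.41, 11.30 and 11.73 in wildtype cells, a fall of 10.1-fold (log2 change -3.34, SE 0.22, adjusted p = 7.28e-06). Stem cell genes were highest in HSC and B lineage genes in B progenitors, but hypomorph and wildtype HSC also differed in their markers. Over 15 stem cell genes the mean level of a group was 9.04 in hypomorph HSC and 9.73 in wildtype HSC, 6.93 in hypomorph MP and 7.54 in wildtype MP, and 5.34 in B progenitors. Over 11 B lineage genes it was 11.3 in B progenitors and at most 5.28 in the other groups.

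Replication starts from origins that are licensed in G1 phase, when the origin recognition complex, Cdc6 and Cdt1 load the ring-shaped Mcm helicase onto DNA in an inactive form. The kinase Cdc7 with its activator Dbf4 then lets Cdc45 and the GINS complex join the ring, the helicase opens the fork, and primase, polymerases, the sliding clamp and its loader copy both strands. Most adult HSC rest outside the cell cycle, whereas myeloid progenitors and early B progenitors divide often, and many genes of this machinery are targets of the E2F transcription factors.

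Promoter sequences are shown for 5 of the genes because 20 of the members rose together in hypomorph HSC and E2F sites are the best known feature of such promoters. RefSeq (GRCm38.p6) entries of 250 bases before to 50 bases after a gene start were matched for 38 of the 47 genes, with 45 entries. Gins1, Gins2, Gins4, Gmnn, Mcm4, Pole, Prim2, Rfc2 and Tipin were not matched. The E2F site was searched on both strands as TTCCCGC, as its variant TTCGCGC, as the variant TTGCCGC and as the variant TTGGCGC, beside the CCAAT box. Matches of TTGGCGC and TTCGCGC on opposite strands can overlap. The 4 sequences of genes called higher in hypomorph HSC come first, then that of Mcm6, a helicase gene not called there, which has the most matches of those shown. Each is printed 5′ to 3′ on the strand of the gene, with E2F matches in capitals, over the first 280 of the 300 bases.
Cdc6: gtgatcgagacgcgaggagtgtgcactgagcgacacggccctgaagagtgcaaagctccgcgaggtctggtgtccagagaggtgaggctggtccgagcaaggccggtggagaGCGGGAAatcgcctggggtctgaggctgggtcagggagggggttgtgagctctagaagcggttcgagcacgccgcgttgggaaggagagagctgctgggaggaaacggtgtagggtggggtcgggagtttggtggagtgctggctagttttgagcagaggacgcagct
Cdc7: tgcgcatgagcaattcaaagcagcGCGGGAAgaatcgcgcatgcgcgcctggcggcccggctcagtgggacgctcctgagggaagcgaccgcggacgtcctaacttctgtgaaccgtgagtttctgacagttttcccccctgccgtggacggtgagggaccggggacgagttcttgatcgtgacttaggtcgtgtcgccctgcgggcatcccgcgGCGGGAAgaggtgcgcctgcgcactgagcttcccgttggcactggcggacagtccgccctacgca
Rfc4: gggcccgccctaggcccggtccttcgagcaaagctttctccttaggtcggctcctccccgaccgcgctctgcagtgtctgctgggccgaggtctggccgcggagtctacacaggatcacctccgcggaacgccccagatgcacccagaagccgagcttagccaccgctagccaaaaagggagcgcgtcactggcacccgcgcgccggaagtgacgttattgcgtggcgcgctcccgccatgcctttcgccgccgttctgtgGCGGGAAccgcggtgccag
Rrm2: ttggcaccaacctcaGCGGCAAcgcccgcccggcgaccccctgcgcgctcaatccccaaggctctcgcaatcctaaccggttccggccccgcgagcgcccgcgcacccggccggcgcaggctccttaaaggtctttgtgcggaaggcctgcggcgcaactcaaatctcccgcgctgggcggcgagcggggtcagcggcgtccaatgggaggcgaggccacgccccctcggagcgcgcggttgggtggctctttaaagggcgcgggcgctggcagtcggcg
Mcm6: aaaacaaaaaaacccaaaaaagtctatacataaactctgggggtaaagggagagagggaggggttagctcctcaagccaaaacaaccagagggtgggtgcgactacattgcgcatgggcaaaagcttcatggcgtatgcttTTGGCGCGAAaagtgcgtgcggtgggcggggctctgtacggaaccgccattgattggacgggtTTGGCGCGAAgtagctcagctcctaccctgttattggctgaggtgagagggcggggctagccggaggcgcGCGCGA

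The Cdc6 sequence lies at chr11:98907901-98908180 on the plus strand and holds 1 match, at positions -138 to -132 counted from the gene start as position 1, with no position 0. The Cdc7 sequence, from the second of its entries, lies at chr5:106964311-106964590 on the plus strand, with matches starting at -226 and -35. Rfc4 (chr16:23127701-23127980, minus strand) has its match just inside the transcript, starting at 12. Rrm2 (chr12:24708004-24708283, plus strand) has a match starting at -235 and a CCAAT box starting at -50. Mcm6 (chr1:128359676-128359955, minus strand) has 5 matches, of which 4 overlap in pairs starting at -109 and -106 and at -46 and -43, and the last runs 1 base past the printed end. An E2F motif was present in 27 of the 45 promoters (60%), against 9.57% of the 32851 promoters in the table, and CCAAT in 53.3% against 37.4%. The members' promoters also had a median GC content of 60%, against 52.7% over all promoters, and the part of base composition in the motif shares was not tested. Among the promoters of members called higher in hypomorph HSC, 62.5% of 16 had an E2F motif, and among those of members not called there, 57.1% of 28. Counted by gene the order was the other way, with 60% of 15 called genes and 63.6% of 22 genes not called. These are matches of letters and not measured binding.

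In HSC, hypomorph cells had higher levels of the replication genes than wildtype cells. Of the 46 genes, 20 rose and none fell at an adjusted p under 0.05, where 5.37% of all genes were called higher and 5.44% lower. The median difference was 0.82 on the log2 scale, while the median over all genes tested was -0.11, and 43 of the 46 differences were above 0, against 40.4% of all genes. With each array centred on its median, which removes that shift, the 20 genes remained among 23 called. In 26 genes all hypomorph arrays lay above both wildtype arrays (13.1% of all genes), and in 1, Pole, all lay below (22.4%). Calls were made in each role with more than 1 gene tested: 6 of 12 licensing genes, 7 of 13 genes of origin firing and the fork, 4 of 16 genes of the polymerases, clamp and Okazaki fragments, and 3 of 4 genes of nucleotide supply. Fewer genes were called without the second wildtype array, which leaves 1 array in that group. A fit of the HSC arrays alone called only Cdc6 and Rrm2 (4.35% of the members). In that fit 0.642% of all genes were called higher and 0.454% lower.

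**Figure D1:**
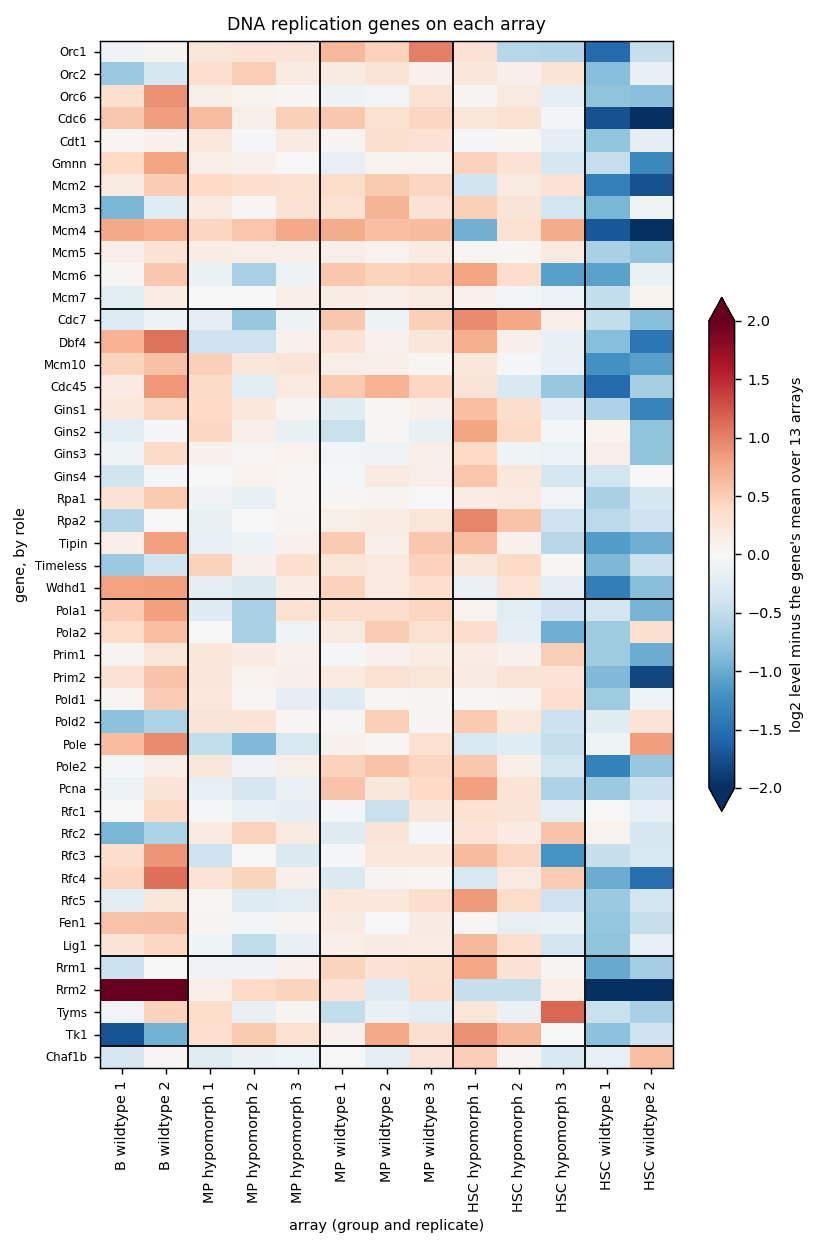
Level of each of the 46 replication genes on each of the 13 arrays, as the log2 difference from the gene's own mean over all arrays, with genes in rows by role and arrays in columns by group. Both wildtype HSC arrays are low in most rows, and wildtype HSC had the lowest group mean for 36 of the 46 genes.

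Among the licensing genes, Mcm4, a helicase subunit, showed the largest change. Its level was 10.38, 11.64 and 12.08 in hypomorph HSC, against 9.65 and 7.79 in wildtype HSC, so that every hypomorph array lay above both wildtype arrays, although each group spread over more than 1 log2 unit. The change was 2.64 (SE 0.48, adjusted p = 0.00415). That SE pools the spread of all 5 groups. The SD of Mcm4 was 0.88 in hypomorph and 1.32 in wildtype HSC. It was 0.17 in hypomorph MP, 0.07 in wildtype MP and 0.04 in B progenitors, and the fit of the HSC arrays alone did not call Mcm4. Cdc6, the factor that loads the helicase with Cdt1, was at 9.82, 9.88 and 9.52 in hypomorph HSC, against 7.84 and 6.97 in wildtype HSC. The hypomorph arrays were close together and far above the wildtype arrays, a rise of 5.05-fold, with a log2 change of 2.34 (SE 0.26, adjusted p = 0.000148). Mcm2, another helicase subunit, was at 11.04, 11.63 and 11.74 in hypomorph HSC, against 10.09 and 9.70 in wildtype HSC, without overlap, and rose by 1.58 (SE 0.23, adjusted p = 0.00099). Gmnn encodes geminin, which binds Cdt1 and blocks a further round of licensing. It was at 11.83, 11.67 and 11.01 in hypomorph HSC, against 10.89 and 10.09 in wildtype HSC, also without overlap, and rose by 1.02 (SE 0.28, adjusted p = 0.0334). The other called licensing genes were Orc6, a subunit of the origin recognition complex (0.84), and Mcm5 (0.81).

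The products of Mcm2 to Mcm7 form the helicase ring together, and of their genes Mcm2, Mcm4 and Mcm5 were called on the probe sets used and Mcm3, Mcm6 and Mcm7 were not. Further probe sets of Mcm6 (2.32, adjusted p = 0.024 over all probe sets) and Mcm7 (0.82, adjusted p = 0.041) did pass the test, so for these 2 genes the call depended on the probe set. Differences between the subunits were not tested. Mcm7 was at 13.26, 13.11 and 13.05 in hypomorph HSC, against 12.67 and 13.24 in wildtype HSC. On the probe set used the groups overlapped, and the difference was 0.18 (SE 0.21, adjusted p = 0.623), with a 95% interval of -0.27 to 0.64. Mcm6 was at 12.76, 12.32 and 10.89 in hypomorph HSC, against 10.90 and 11.84 in wildtype HSC, and the third hypomorph array lay level with the lower wildtype array, with a difference of 0.62 (SE 0.44, adjusted p = 0.402). For Mcm3 the difference was 0.62 (SE 0.31, adjusted p = 0.221). The remaining licensing genes not called were Orc1 (0.71), Orc2 (0.70) and Cdt1 (0.42), so that all 12 differences were above 0, with a median of 0.76.

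The genes of origin firing and the fork all had differences above 0, with a median of 0.88 and a range of 0.32 to 1.38. Dbf4 and Cdc7, the activator and the catalytic subunit of the kinase that fires origins, both rose. Dbf4 was at 9.72, 9.11 and 8.85 in hypomorph HSC, against 8.15 and 7.55 in wildtype HSC, a log2 change of 1.38 (SE 0.28, adjusted p = 0.00802). Cdc7 was at 9.92, 9.75 and 9.10 in hypomorph HSC, against 8.47 and 8.12 in wildtype HSC, a log2 change of 1.30 (SE 0.29, adjusted p = 0.0134). In both genes all 3 hypomorph arrays lay above both wildtype arrays. Gins1, a subunit of the GINS complex, was at 10.46, 10.21 and 9.68 in hypomorph HSC, against 9.24 and 8.52 in wildtype HSC, with no overlap and a log2 change of 1.24 (SE 0.27, adjusted p = 0.0107). Mcm10, which binds the helicase when it is activated, was at 9.67, 9.41 and 9.28 in hypomorph HSC, against 8.24 and 8.37 in wildtype HSC, a log2 change of 1.15 (SE 0.19, adjusted p = 0.00236) with the groups apart.

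Wdhd1, the homologue of yeast Ctf4 that links polymerase alpha to the helicase, was at 9.83, 10.23 and 9.77 in hypomorph HSC, against 8.57 and 9.11 in wildtype HSC. The groups did not overlap, and the change was 1.10 (SE 0.23, adjusted p = 0.00886). Tipin (1.10) and Timeless (0.88), partners in the complex that stabilises the fork, were called as well. GINS has 4 subunits, and only Gins1 passed the test, although no difference between the subunits was tested. Gins4 was at 9.63, 9.28 and 8.72 in hypomorph HSC, against 8.69 and 9.09 in wildtype HSC, with overlapping groups and a difference of 0.32 (SE 0.25, adjusted p = 0.458). Gins3 was at 7.78, 7.30 and 7.27 in hypomorph HSC, against 7.52 and 6.58 in wildtype HSC, again with overlap and a difference of 0.40 (SE 0.27, adjusted p = 0.377). The differences were 0.75 for Gins2 and 0.83 for Cdc45, the helicase partner of GINS, also without a call. Rpa1 and Rpa2, which coat single-stranded DNA, differed by 0.60 (adjusted p = 0.057) and 0.85 (adjusted p = 0.107).

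**Figure D2:**
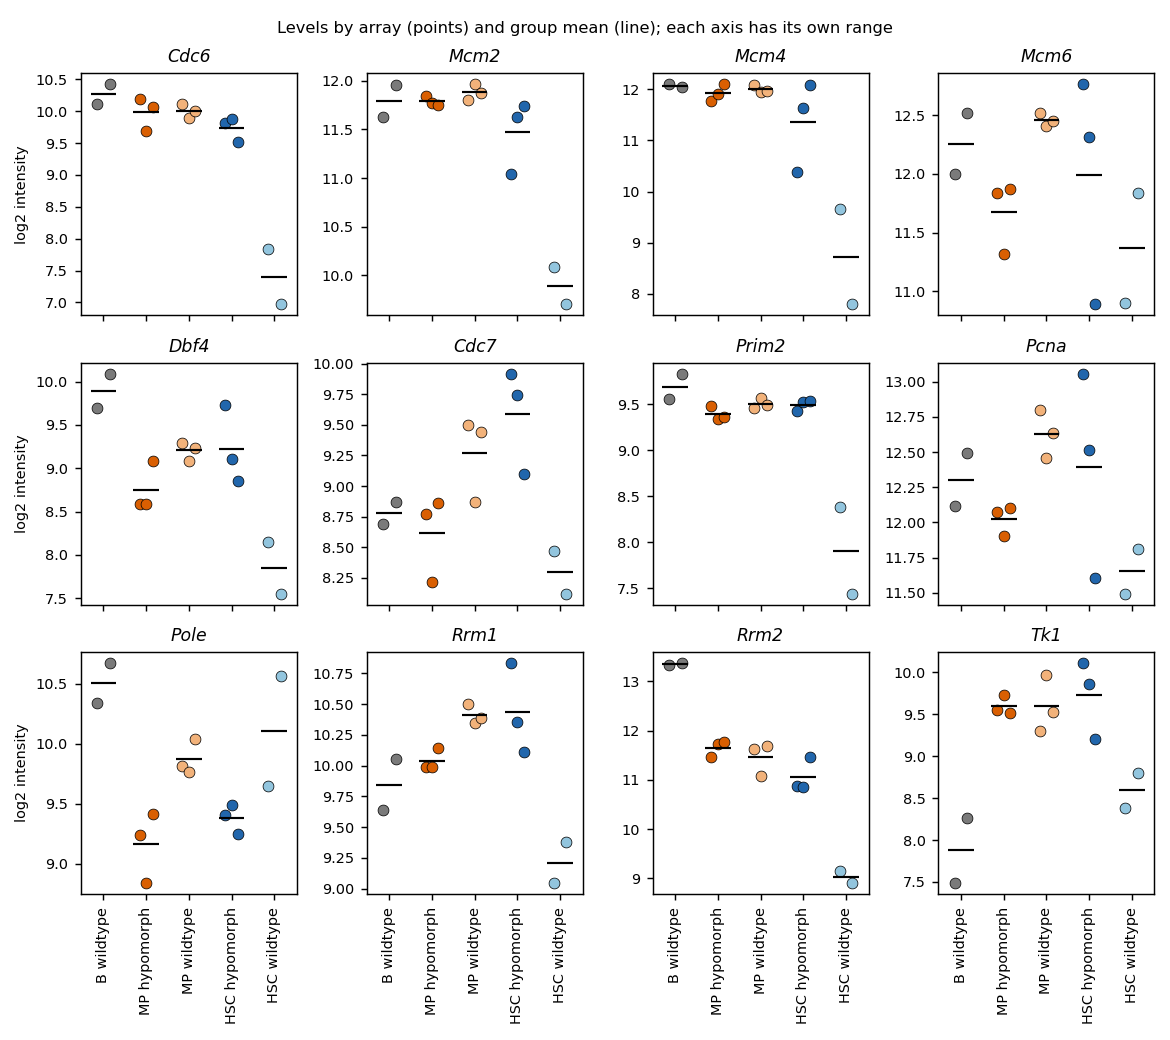
Log2 intensity of 12 replication genes on each array (points) with the group mean (line), in the order B wildtype, MP hypomorph, MP wildtype, HSC hypomorph and HSC wildtype, each panel with its own range. Cdc6, Mcm2, Dbf4, Prim2, Rrm1 and Rrm2 are high in all hypomorph HSC arrays and low in both wildtype HSC arrays, while the hypomorph HSC arrays of Mcm6 and Pcna spread over more than 1 log2 unit.

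In the polymerase group both primase genes rose. Prim2, the large subunit of primase, was at 9.42, 9.52 and 9.54 in hypomorph HSC, against 8.38 and 7.44 in wildtype HSC. The 3 hypomorph arrays were nearly equal and lay above both wildtype arrays, with a rise of 3-fold and a log2 change of 1.58 (SE 0.24, adjusted p = 0.0013). Prim1, the catalytic subunit, was at 11.01, 10.95 and 11.35 in hypomorph HSC, against 10.16 and 9.86 in wildtype HSC, without overlap, and changed by 1.09 (SE 0.20, adjusted p = 0.00386). Rfc4, a subunit of the loader that opens the sliding clamp, was at 9.56, 10.07 and 10.40 in hypomorph HSC, against 8.89 and 8.38 in wildtype HSC, a log2 change of 1.37 (SE 0.28, adjusted p = 0.00803) with the groups apart. Pole2, the accessory subunit of polymerase epsilon, was at 9.91, 9.49 and 9.01 in hypomorph HSC, against 8.02 and 8.61 in wildtype HSC, again without overlap, and changed by 1.16 (SE 0.26, adjusted p = 0.013).

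The other 12 genes of that role were not called. Pole, the catalytic subunit of polymerase epsilon, was at 9.40, 9.49 and 9.24 in hypomorph HSC, against 9.64 and 10.56 in wildtype HSC, and is given because its difference had the opposite sign to that of Pole2, a choice made after the values were seen. All hypomorph arrays lay below both wildtype arrays, which differed from each other by nearly 1 log2 unit, and the difference was -0.72 (SE 0.27, adjusted p = 0.102). Pola2, an accessory subunit of polymerase alpha, was at 9.48, 8.95 and 8.15 in hypomorph HSC, against 8.42 and 9.45 in wildtype HSC, with overlap and a difference of -0.08 (SE 0.37, adjusted p = 0.922). Pold2, an accessory subunit of polymerase delta, was at 10.73, 10.42 and 9.78 in hypomorph HSC, against 9.96 and 10.48 in wildtype HSC, likewise overlapping, with a difference of 0.09 (SE 0.28, adjusted p = 0.864) and a 95% interval of -0.50 to 0.69. Pcna, the sliding clamp and a common marker of proliferation, was at 13.06, 12.51 and 11.61 in hypomorph HSC, against 11.49 and 11.81 in wildtype HSC, and was also singled out after its values were seen. For Pcna the third hypomorph array lay between the wildtype arrays, and the difference was 0.74 (SE 0.33, adjusted p = 0.167). Fen1, which trims Okazaki fragments, and Lig1, which seals them, differed by 0.54 (adjusted p = 0.0741) and 0.68 (adjusted p = 0.148). The loader subunits other than Rfc4 differed by 0.22 (Rfc1), 0.34 (Rfc3), 0.47 (Rfc2) and 0.83 (Rfc5). Further probe sets of Rfc3 (1.36, adjusted p = 0.00966 over all probe sets) and Rfc2 (1.29, adjusted p = 0.00964) were called, so those absent calls rest on the choice of probe set.

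The 4 genes of nucleotide supply had a median difference of 1.18, and differences between roles were not tested. Rrm2, the small subunit of ribonucleotide reductase, which limits the supply of deoxynucleotides in S phase, was at 10.87, 10.86 and 11.46 in hypomorph HSC, against 9.15 and 8.90 in wildtype HSC. Every hypomorph array lay well above both wildtype arrays, a rise of 4.11-fold with a log2 change of 2.04 (SE 0.25, adjusted p = 0.000255). Rrm1, the large subunit of the same enzyme, was at 10.83, 10.35 and 10.11 in hypomorph HSC, against 9.05 and 9.38 in wildtype HSC, without overlap, and changed by 1.22 (SE 0.23, adjusted p = 0.00548). Tk1, the cytosolic thymidine kinase that salvages thymidine, was at 10.11, 9.86 and 9.21 in hypomorph HSC, against 8.39 and 8.80 in wildtype HSC, also without overlap, and changed by 1.14 (SE 0.31, adjusted p = 0.031). Tyms, which makes thymidylate, was at 6.20, 5.82 and 7.09 in hypomorph HSC, against 5.50 and 5.30 in wildtype HSC. Its hypomorph arrays all lay above the wildtype arrays, but the difference of 0.97 (SE 0.32) did not pass the test at an adjusted p of 0.0686. A further probe set of Tyms, with a mean of 4.62 near the filter level, differed by 0.18 in HSC. In MP that probe set differed by -0.21 between the genotypes, against 0.38 for the chosen one. Chaf1b, the tested gene of chromatin assembly, was at 9.17, 8.73 and 8.38 in hypomorph HSC, against 8.52 and 9.27 in wildtype HSC, with overlapping groups and a difference of -0.13 (SE 0.27, adjusted p = 0.8).

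The arrays of a group did not stand at 1 level in these genes. The mean over the 46 genes was between 9.86 and 10.32 on the hypomorph HSC arrays, against 9.22 and 9.30 on the wildtype arrays. The third hypomorph array was the lowest of its group for 34 of the 46 genes and the first the highest for 28. This order was not compared with that over all genes. The mean of 15 stem cell genes had the same order (9.27, 9.17 and 8.70), while that of 12 erythroid genes did not (7.83, 7.57 and 7.63). Leaving the third array out gave 27 called genes, where 6.05% of all genes were called higher and 4.64% lower. The 2 wildtype HSC arrays differed by 1 or more in 3 of the 46 genes (6.52%), against 9.24% of all genes tested. Of the 41 further probe sets of the members that passed the filter, 39 had a difference of the same sign as the chosen probe set in HSC, and all 9 of them that were called rose. With every probe set tested 24 genes were called by at least 1 of them, 4 of these (Mcm6, Mcm7, Rfc2 and Rfc3) by a further probe set alone. The size also varied, and a further probe set of Mcm4 gave 1.04, against 2.64 for the chosen one. The 3 probe sets of Rrm2 rose by 2.04, 2.57 and 2.49.

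Markers of other cell types also rose or fell in this comparison. Over all genes, 5.37% were called higher and 5.44% lower, with a median of -0.11. Over 13 genes of granulocyte and monocyte progenitors, 4 rose and none fell, and the mean level ran between 8.71 and 9.20 on the hypomorph HSC arrays, against 7.90 and 8.19 on the wildtype arrays. Among the 4 that rose, Ctsg and Ms4a3 changed by 3.42 and 3.27, while the median over the 13 genes was 0.62. Over 8 mast cell and basophil genes, 6 rose and none fell, with mean levels between 7.57 and 8.28 in hypomorph HSC and of 5.32 and 5.78 in wildtype HSC. Of 15 stem cell genes, 5 fell and 1 rose, with mean levels between 8.70 and 9.27 in hypomorph HSC and of 9.71 and 9.76 in wildtype HSC. Of 12 erythroid genes, 3 rose and 1 fell, with a median of 0.84. Of 8 megakaryocyte genes 2 fell (median -0.27), as did 2 of 11 B lineage genes (median -0.36), and 1 of 5 T and NK cell genes rose. That gene was Nkg7 (1.88), which also counts among the 4 of the granulocyte and monocyte list, and the median of the T and NK list was -0.07. The part of these cell types in the levels of the replication genes was not tested.

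In MP, the replication genes showed no called change with the genotype. Of the 46 genes, 0 were called in limma, where 0.337% of all genes were called higher and 0.251% lower, and 3 had an unadjusted p under 0.05, against 15% of all genes. The median difference was -0.09, beside -0.02 over all genes, and the differences ran between -0.78 (Mcm6) and 0.38 (Tyms). In 16 of the 46 genes (34.8%) all 3 hypomorph arrays lay below all 3 wildtype arrays, a larger share than the 16.3% of all genes. In 2 genes (4.35%), Mcm10 and Rfc4, they lay above, against 11.4% of all genes. Mcm6 was at 11.83, 11.32 and 11.87 in hypomorph MP, against 12.51, 12.41 and 12.45 in wildtype MP. Those groups did not overlap, and the difference of -0.78 (SE 0.39) had an adjusted p of 0.362. Pcna was at 12.07, 11.90 and 12.10 in hypomorph MP, against 12.80, 12.46 and 12.64 in wildtype MP, again apart, with a difference of -0.61 (SE 0.29, adjusted p = 0.344). For Pole, with -0.72 in HSC, the levels were 9.23, 8.84 and 9.41 in hypomorph MP, against 9.82, 9.77 and 10.04 in wildtype MP, a difference of -0.71 (SE 0.24, adjusted p = 0.224). When the arrays were weighted by their own spread, 10 of the 46 genes (21.7%) were called, all of them lower in hypomorph MP, but with those weights 19.1% of all genes were called lower, so the members' share was near that of all genes.

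The effect of the genotype in HSC exceeded that in MP for 12 genes by the test of the difference itself, and no gene had the opposite difference, where 3.27% of all genes were called in the first direction and 2.37% in the second. The median difference over the 46 genes was 0.96, beside -0.09 over all genes, and 45 of 46 differences were above 0 (44.6% of all genes). This test contains the HSC arrays already described, so it is no separate evidence of the change in HSC. The 12 genes were 3 of licensing (Cdc6, Mcm2 and Mcm4), 4 of origin firing and the fork (Cdc7, Dbf4, Tipin and Wdhd1), 3 of the polymerases (Prim1, Prim2 and Pole2) and 2 of nucleotide supply (Rrm1 and Rrm2). Without the second wildtype HSC array or without the first wildtype MP array 7 genes were called, where 1.41% and 1.21% of all genes were called in the same direction. Without the third hypomorph HSC array 23 were (7.2% of all genes), and with weighted arrays 28 (11.8%).

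Cdc6 gave the smallest p of these. It was at 10.19, 9.69 and 10.06 in hypomorph MP, against 10.11, 9.89 and 10.003 in wildtype MP, with a difference there of -0.02 and a difference between the effects of 2.36 (SE 0.35, adjusted p = 0.00283). Rrm2 was at 11.47, 11.72 and 11.77 in hypomorph MP, against 11.63, 11.08 and 11.68 in wildtype MP. The groups overlapped, and the effects differed by 1.85 (SE 0.33, adjusted p = 0.00859). Mcm2 was at 11.84, 11.78 and 11.75 in hypomorph MP, against 11.81, 11.96 and 11.88 in wildtype MP, overlapping, and the effects differed by 1.67 (SE 0.31, adjusted p = 0.00986). For Prim2 the MP arrays read 9.48, 9.34 and 9.36 in hypomorph cells, against 9.45, 9.56 and 9.50 in wildtype cells, and the effects differed by 1.69 (SE 0.33, adjusted p = 0.0113). In these 4 genes the MP arrays of both genotypes lay within 1 log2 unit of every hypomorph HSC array.

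In 5 of the other genes, Cdc7, Rrm1, Wdhd1, Pole2 and Tipin, all hypomorph MP arrays lay below all wildtype MP arrays, without a call in MP. Cdc7 was at 8.78, 8.21 and 8.86 in hypomorph MP, against 9.50, 8.87 and 9.44 in wildtype MP. Its difference in MP was -0.65, and the effects differed by 1.95 (SE 0.39, adjusted p = 0.0138). Rrm1 read 9.99, 9.99 and 10.14 in hypomorph MP, against 10.50, 10.35 and 10.39 in wildtype MP, and its effects differed by 1.59 (SE 0.31, adjusted p = 0.0129). Wdhd1 read 9.77, 9.68 and 10.10 in hypomorph MP, against 10.41, 10.16 and 10.28 in wildtype MP, and its effects differed by 1.53 (SE 0.31, adjusted p = 0.0138). Dbf4 was at 8.59, 8.59 and 9.08 in hypomorph MP, against 9.30, 9.08 and 9.24 in wildtype MP. Here the highest hypomorph array reached the lowest wildtype array, and the effects differed by 1.83 (SE 0.38, adjusted p = 0.0158). Mcm4 (2.72), Pole2 (1.56), Tipin (1.56) and Prim1 (1.00) completed the list, with adjusted p between 0.0221 and 0.0439.

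**Figure D3:**
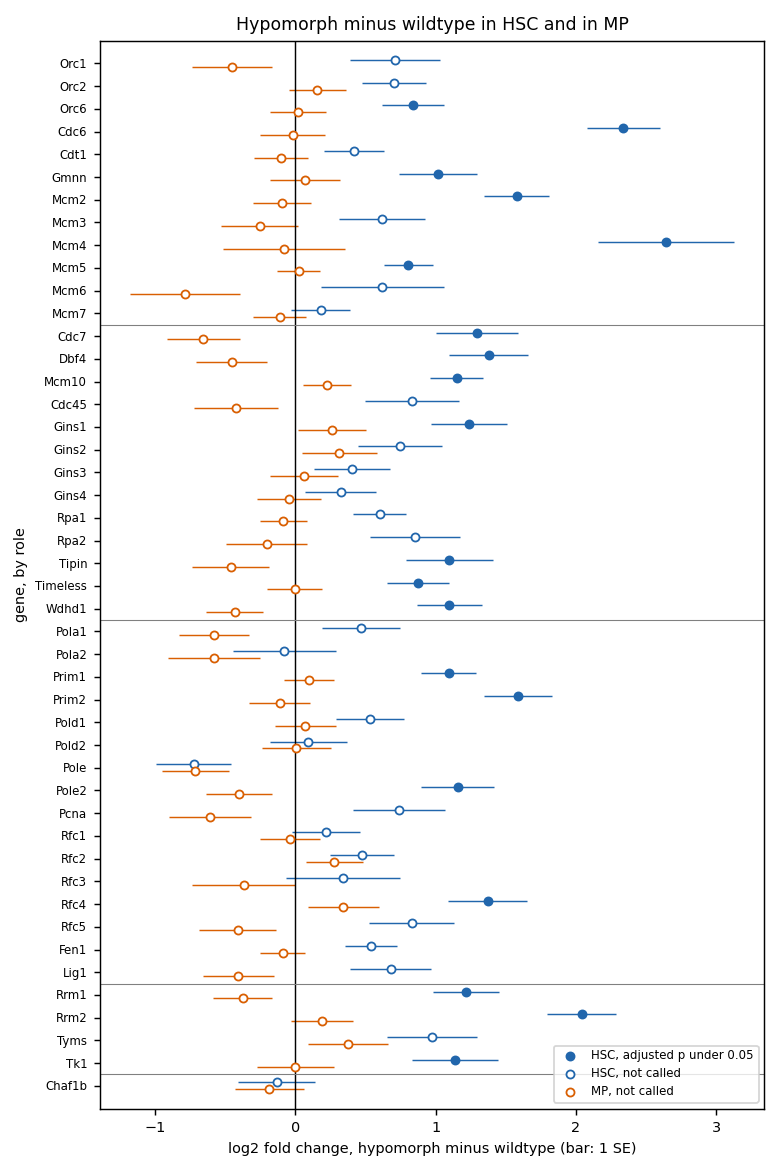
Log2 change in hypomorph against wildtype HSC and in hypomorph against wildtype MP for each of the 46 genes, by role, with bars of 1 SE and filled points for an adjusted p under 0.05. The filled points are the 20 genes higher in hypomorph HSC, no MP point is filled, and the MP differences lie between -0.78 and 0.38.

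In the wildtype, MP had higher levels of these genes than HSC. Of the 46 genes, 29 rose and none fell (13.8% of all genes were called higher and 18% lower), with a median difference of 0.90, beside -0.12 over all genes. Licensing contributed 10 of 12 genes, origin firing and the fork 9 of 13, the polymerase group 7 of 16 and nucleotide supply 3 of 4. The largest changes were those of Mcm4, 3.28 with SE 0.48 and adjusted p = 0.000222, Cdc6, 2.60 with SE 0.26 and adjusted p = 9.69e-06 and Rrm2, 2.44 with SE 0.25 and adjusted p = 1.01e-05. Orc1, the largest subunit of the origin recognition complex, rose by 1.71 and Cdc45 by 1.64, and neither was called with the genotype in HSC. Mcm6 and Mcm7 differed by 1.09 and 0.36 without a call on the probe sets used, although further probe sets of Mcm6 (3.07, adjusted p = 0.00158 over all probe sets) and Mcm7 (1.07, adjusted p = 0.00383) were called. The same held for further probe sets of Rfc3 (1.32) and Rfc2 (1.03). Gins2, Gins3 and Gins4 differed by 0.18, 0.33 and 0.27, also without a call. This comparison uses the same 2 wildtype HSC arrays as the genotype comparison in HSC, so the values of both are given side by side and no overlap between them is drawn.

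In the hypomorph, 1 of the 46 genes differed between MP and HSC by the test. It was Cdc7, lower in MP by 0.97 on the log2 scale (SE 0.26, adjusted p = 0.0269), where 7.47% of all genes were called lower and 4.18% higher. Cdc7 was at 8.78, 8.21 and 8.86 in hypomorph MP, against 9.92, 9.75 and 9.10 in hypomorph HSC, without overlap. The median difference was -0.07, beside -0.03 over all genes, and 2 members had an unadjusted p under 0.05 in limma, against 22.8% of all genes. A missed threshold does not show equal levels: for Cdc6 the difference was 0.24 with a 95% interval of -0.26 to 0.74, and for Mcm4 it was 0.56 with an interval of -0.37 to 1.49. Without the third hypomorph HSC array 7 genes were called, 6 of them lower in MP. With that array left out, 11.1% of all genes were called lower and 4.79% higher. Without any 1 of 4 other arrays (the first or second of hypomorph HSC or of hypomorph MP) no member was called.

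**Figure D4:**
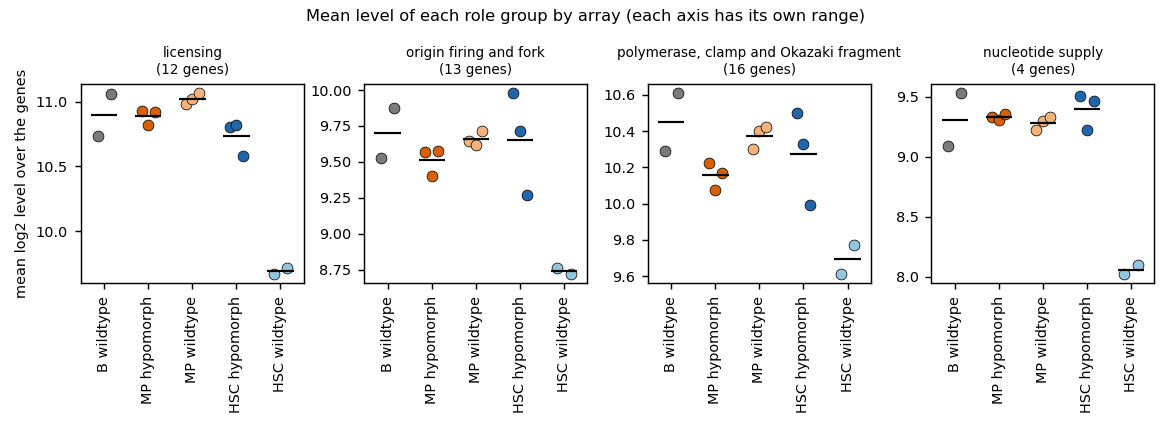
Mean log2 level over the genes of each role on each array (points) with the group mean (line), in 4 panels with their own ranges. The wildtype HSC arrays lie lowest in each panel, at 9.67 and 9.72 for licensing and at 8.02 and 8.09 for nucleotide supply. In each panel the hypomorph HSC mean lies closer to both MP means than to the wildtype HSC mean. The third hypomorph HSC array lies below every MP array for licensing (10.58), the fork (9.27) and the polymerase group (9.99).

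Wildtype B progenitors also had higher levels than wildtype HSC. Of the 46 genes, 22 rose and none fell (14.9% of all genes were called higher and 30.2% lower), with a median difference of 0.85, beside -0.25 over all genes. Rrm2 showed the largest change, at 13.33 and 13.38 in B progenitors, against 9.15 and 8.90 in wildtype HSC, a rise of 20.1-fold (log2 change 4.33, SE 0.27, adjusted p = 2.95e-08). It was followed by Mcm4 (3.35), Cdc6 (2.87), Dbf4 (2.05) and Rfc4 (2.02). By role the calls were 7 of 12 licensing genes, 7 of 13 fork genes, 7 of 16 of the polymerase group and 1 of 4 of nucleotide supply. With every probe set tested 30 genes were called, 9 of them by a further probe set alone, and 1 further probe set, of Rfc2, was lower (-0.88). The wildtype HSC arrays are again shared with the comparisons above.

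Against wildtype MP, B progenitors were higher for 2 of the 46 genes and lower for 6, shares under those of all genes (11.2% higher and 24.7% lower). Nucleotide supply held the largest change in either direction. Rrm2 was at 13.33 and 13.38 in B progenitors, against 11.63, 11.08 and 11.68 in wildtype MP, a rise of 3.71-fold with a log2 change of 1.89 (SE 0.25, adjusted p = 3.68e-05). Tk1 was at 7.49 and 8.26 in B progenitors, against 9.30, 9.96 and 9.52 in wildtype MP, a log2 change of -1.72 (SE 0.31, adjusted p = 0.000539). In both genes the groups stood clear of each other. Rrm1, the partner of Rrm2, was at 9.64 and 10.05 in B progenitors, against 10.50, 10.35 and 10.39 in wildtype MP, and its difference of -0.57 was not called (adjusted p = 0.0759). Rfc4 was the other gene called higher (0.83). The others called lower were Mcm3 (-1.0), Pold2 (-0.91), Timeless (-0.87), Rfc2 (-0.77) and Orc2 (-0.72).

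Several of those smaller calls depended on the probe set or on 1 array, whereas each probe set of Rfc2 was called lower (-0.77, -0.84 and -0.78). With the mean of a gene's probe sets, the difference of Orc2 between B progenitors and MP was 0.14 (adjusted p = 0.625), and that of Mcm3 (-0.08) and of Timeless (-0.05) was not called. The probe sets of Mcm3 pointed both ways, with further ones called at -0.98, 1.95 and 0.78. Without the second wildtype MP array 4 genes were called, where 10% of all genes were called higher and 22.5% lower. With every probe set tested 13 genes were called, 5 of them (Mcm10, Prim1, Rfc1, Rfc3 and Tyms) by a further probe set alone. Of all probe sets, 13% were called higher and 20.4% lower. Rrm2 and Tk1 were called under all 14 alternatives.

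**Figure D5:**
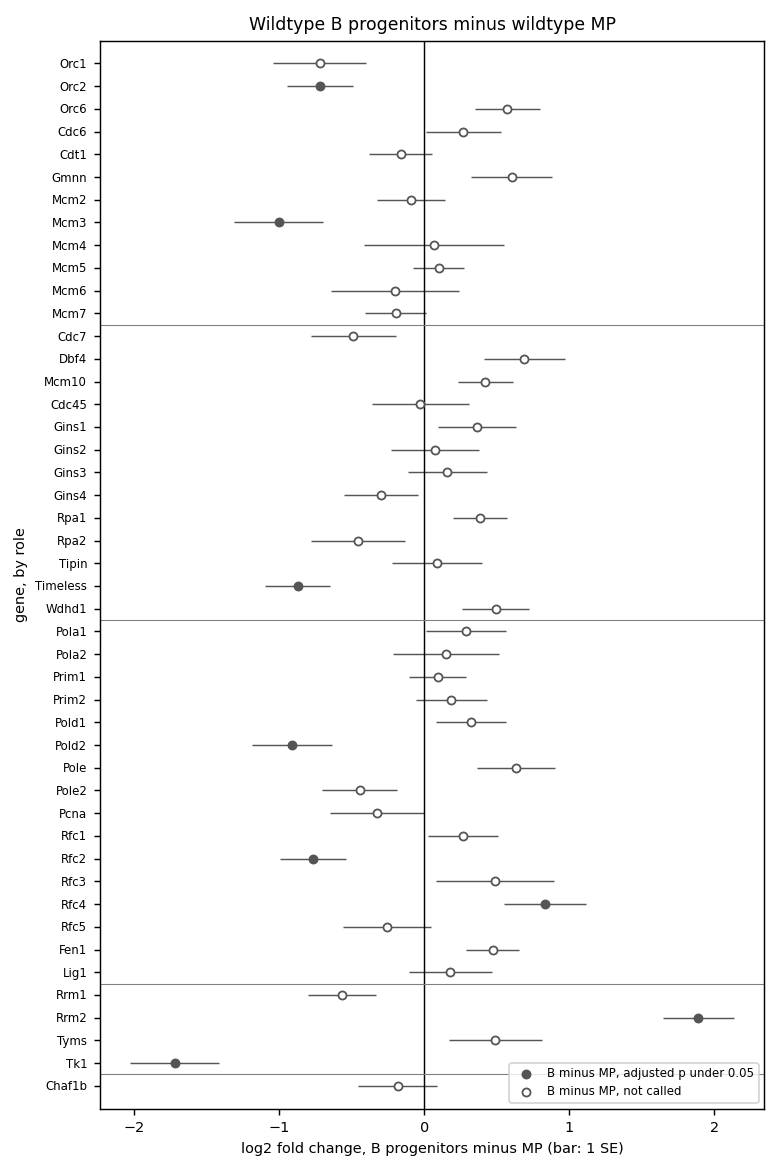
Log2 difference of each of the 46 genes in wildtype B progenitors against wildtype MP, by role, with bars of 1 SE and filled points for an adjusted p under 0.05. Rrm2 (1.89) and Tk1 (-1.72) lie farthest from 0, on opposite sides, and most genes lie within 1 log2 unit of 0.

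Over the 5 groups, wildtype HSC had the lowest mean for 36 of the 46 genes, against 18.6% of all genes. B progenitors had the highest mean for 23 genes (24% of all genes), hypomorph HSC for 10 (9.26%) and wildtype MP for 10 (16.7%). Hypomorph HSC were highest for Cdc7, Rrm1, Tk1, Tyms, Prim1, Rpa2, Rfc2, Rfc5, Gins2 and Gins4. Cdc7, for example, averaged 9.59 ± 0.43 in hypomorph HSC (SD, n = 3), 8.62 ± 0.35 in hypomorph MP (n = 3), 9.27 ± 0.35 in wildtype MP (n = 3), 8.78 ± 0.12 in B progenitors (n = 2) and 8.29 ± 0.25 in wildtype HSC (n = 2). Not every pair of neighbouring groups was tested, and an order whose difference was not called was not shown to exceed the spread between arrays. The 10 genes in which wildtype HSC were not lowest were Orc2, Mcm3, Gins4, Pold2, Rfc2 and Tk1, lowest in B progenitors, Pole, Rfc1 and Chaf1b, lowest in hypomorph MP, and Pola2, lowest in hypomorph HSC.

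Further genes of the same pathways were also called in hypomorph against wildtype HSC. Over all genes tested, 5.37% were called higher and 5.44% lower there, with a median of -0.11. Of 28 further replication factors, 6 rose and 1 fell, with a median of 0.53. Dscc1, a subunit of an alternative clamp loader, rose by 1.65 (adjusted p = 0.00329), Rpa3, the smallest subunit of the single-strand binding complex, by 1.30, and Top2a, a topoisomerase, by 1.25, whereas Pold4, a small subunit of polymerase delta, fell by 1.45 (adjusted p = 0.00474). Of 25 further genes of nucleotide supply, 4 rose and none fell, with a median of 0.32, among them Mthfd2, a mitochondrial enzyme of folate metabolism (1.56), Dut, which removes dUTP (1.47), and Shmt1 (1.01). Of 11 further genes of chromatin assembly and replicated chromatin, 5 rose and none fell, with a median of 0.93. These included Uhrf1, which recruits Dnmt1 to hemimethylated DNA (2.29, adjusted p = 0.00116), the remodeller Hells (2.12, adjusted p = 0.000102) and the histone chaperone Nasp (1.57).

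The rest of the cell cycle was also represented among the called genes of that comparison, where 5.37% of all genes were called higher and 5.44% lower. Of 27 genes of G1/S control, 10 rose and none fell in hypomorph HSC, including Ccne2, a cyclin that activates Cdk2 (3.76, adjusted p = 2.73e-05), Ccnd1 (2.73) and E2f8, a repressor among the E2F factors (2.02). Of 29 mitosis genes, 24 rose and none fell, with a median of 1.21, such as the checkpoint kinase Bub1 (2.74) and Aurkb (2.37). Of 5 cell cycle inhibitors, 3 rose, namely Cdkn1b (1.63), Cdkn2c (1.53) and Cdkn1a (1.04). In MP, hypomorph against wildtype, 1 of the 27 genes of G1/S control was called, Ccnd1 (2.47, adjusted p = 0.0124), and none of the 29 mitosis genes, 28 further replication factors, 25 genes of nucleotide supply or 11 of chromatin assembly. Over all genes, 0.337% were called higher and 0.251% lower in MP.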

How the data were processed

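Expression was measured on 13 Affymetrix arrays in 5 groups. The deposited values are RMA values, per the submitters' processing notes, and were read as log2 intensities. They run between 1.93 and 14.99. Base 2 was inferred because no label states it, and the RMA version was not given in these sources. The authors deposited 24 columns, 13 of a normalization of all arrays, used here, and 11 of a second normalization of the HSC and MP arrays, taken as an alternative and never counted as further replicates.

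Of 45101 probe sets, 34958 had 1 gene symbol, while 932 had several and 9211 had none, per the platform annotation. The filter on dim probe sets asked for 4.64, the median over the table, on 2 or more arrays. Each gene was read from the brightest probe set that passed, which left 12765 of 18194 genes. A limma model (3.58.1, in R 4.3.3, with statmod 1.5.0) with 5 group means and 8 residual degrees of freedom was fitted to all genes for 7 comparisons and tested on simulated data. The 5 groups shared a single estimate of the spread of each gene. P-values were adjusted over all genes. Array medians ran between 4.56 and 4.74, and the number of arrays limits the precision.

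Levels array by array were given for the 4 called genes of each role with the largest change in HSC, for the 2 with the largest p, and for genes with a called difference of effects (up to 8), and of further lists up to 3 called genes in each direction were named. The members and lists were chosen with earlier results of these data known. The motif search covered 300 bases around each gene start. Alternatives were the second normalization, centring, a replicate block, only the arrays compared, trended and robust priors, array weights, every gene unfiltered, a stricter filter of 7.10 (percentile 75), probe sets averaged or tested separately, and leaving out each array.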

Additional observations from a re-analysis of the deposited data

Results flagged for a closer look

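For 12 replication genes the effect of the Dnmt1 genotype differed between HSC and MP by the interaction term of the limma model, with higher values of the difference meaning a larger change in HSC. The differences, on the log2 scale, were 2.36 for Cdc6, 1.85 for Rrm2, 1.67 for Mcm2, 1.69 for Prim2, 1.59 for Rrm1, 1.53 for Wdhd1, 1.95 for Cdc7, 1.83 for Dbf4, 1.56 for Pole2, 2.72 for Mcm4, 1.56 for Tipin and 1.00 for Prim1. Hypomorph and wildtype cells differed in Cdc6 by 2.34 in HSC and -0.02 in MP, in Rrm2 by 2.04 in HSC and 0.19 in MP, and in Cdc7 by 1.30 in HSC and -0.65 in MP. In Cdc7, Rrm1, Wdhd1, Pole2 and Tipin the hypomorph arrays lay above all wildtype arrays in HSC and below all wildtype arrays in MP. The calls of Cdc6, Rrm2, Mcm2, Prim2 and Wdhd1 were kept under all 21 alternatives, whereas Tipin was called under 10 and Prim1 under 12 of them.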

How the results depend on the processing

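The counts of members called moved by over 1.5 times under the following settings. Hypomorph against wildtype HSC gave 20, but 2 in a fit of the HSC arrays alone, where all genes gave 140 calls against 686 higher and 694 lower ones. It gave 27 without the third hypomorph array, where 6.05% of all genes were called higher. Leaving out the second wildtype array lowered the count and left 1 array in that group. Hypomorph against wildtype MP gave 0, but 10 with array weights, all lower, a share (21.7%) near the 19.1% of all genes called lower there. The difference of these effects gave 12, but 28 with array weights (11.8% of all genes called higher, against 3.27%), and between 7 and 23 when an array was left out. The 7 came without the second wildtype HSC array or the first wildtype MP array, and the 23 without the third hypomorph HSC array (7.2% of all genes). Hypomorph MP against hypomorph HSC gave 1, but 0 with only the arrays compared. It gave 5 (10.9%) with array weights, where 9.43% of all genes were called higher and 16.2% lower. With every probe set it gave 2, adding a further probe set of Rfc1 that was higher in MP (0.93), while the chosen one was at -0.25. When an array was left out it gave between 0 and 7. The 7 came without the third hypomorph HSC array, where 11.1% of all genes were called lower and 4.79% higher. Wildtype B progenitors against MP gave 8, but 13 with every probe set, where 13% of all probe sets were called higher and 20.4% lower. It gave 4 without the second MP array, where 10% of all genes were called higher and 22.5% lower. Members called in wildtype MP against HSC (29) and in B progenitors against HSC (22) stayed within 1.5 times under every alternative run. With the mean of probe sets 23 of 322 differences changed sign, 3 of which were called before or after: Orc2 (0.69, adjusted p = 0.0193) and Mcm3 (0.70, adjusted p = 0.0446) in B progenitors against HSC, and Orc2 (0.14, adjusted p = 0.625) in B progenitors against MP. Each other alternative with 1 value per gene changed the sign of at most 18 differences, none of them called. The cause of these shifts was not tested. Labels of hypomorph and wildtype arrays share replicate numbers, but deviations of arrays with the same number correlated at -0.20 and 0.01 in HSC and at -0.05, 0.30 and 0.15 in MP, so the numbers were not taken to pair arrays. With a replicate block 17 members were called in HSC, where 3.74% of all genes were called higher and 3.3% lower. With that block 0 members were called in MP (0.266% and 0.196% of all genes) and 9 in the difference (1.81% and 1.14%). No detection calls were used, so distance from background is not known.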

Other observations

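Wildtype B progenitors and MP differed in the wider supply of nucleotides while few replication genes were called between them. Of 25 further genes of nucleotide supply, 17 were lower in B progenitors and 5 higher, with a median difference of -1.08, beside -0.13 over all genes tested. Dctd, which deaminates dCMP on the way to thymidylate, fell by 4.27 on the log2 scale (adjusted p = 1.56e-07), Cad, the first enzyme complex of pyrimidine synthesis, by 2.20, and Gart, an enzyme of purine synthesis, by 2.15. Rrm2b, the alternative small subunit of ribonucleotide reductase, was higher by 3.36 (adjusted p = 4.23e-07), Dck, which salvages deoxycytidine, by 1.78, and Mthfd2 by 1.39. Among the 4 members of that role, Rrm2 was higher in B progenitors and Tk1 lower.

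Regulators around S phase also differed between these cells. Of 27 genes of G1/S control, 9 were higher and 5 lower in B progenitors, where 11.2% of all genes were called higher and 24.7% lower, so that the share of lower genes was under that of all genes. They were led by E2f2 (4.29, adjusted p = 1.76e-08) on the side of the higher genes and by Myc (-3.36) and Mycn (-3.34) on the other. Of 29 mitosis genes, 14 were higher and none lower, for example Kif23 (1.93) and Ccnb2 (1.81). All 5 cell cycle inhibitors tested were higher, among them Cdkn1c (2.26), Cdkn2c (2.25) and Cdkn2d (2.00). Genes of other cell types differed far more, with Mpo, the myeloperoxidase of granules, lower by 9.84 and Rag1, the recombinase of B and T cell precursors, higher by 9.50 in B progenitors, and the part of cell type in the differences of the replication genes was not tested.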
